A study of Danio rerio with 4 samples.

Results

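Connexins are the proteins of gap junctions, the channels that join neighbouring cells, and the genes described here are those that vessels and heart muscle are known to use. The set was named as 7 zebrafish genes, and 6 were found among the 20306 genes of the deposited table. These were gja5a, gja5b, cx39.4 (used for gja4), cx40.8 (used for gja1a), cx43 (used for gja1b) and gja3. No row carried the symbol gjc1, and no row was taken as that member. The row cx43.4, to which the protein annotation also gives that name, is described among the other connexins. The genes gja5a and gja5b were put in the set because their values in the comparison below were already known to differ, so every value of the 6 genes is given as a description and none with a p-value.

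Wild-type zebrafish hearts were injured by freezing of the ventricle, and at 7 days after injury coronary endothelial cells, which line the vessels of the heart, were sorted for bulk RNA sequencing. All cells carried red fluorescence from the -0.8flt1:RFP reporter, a promoter fragment of a vascular endothelial growth factor receptor gene, and were split by yellow fluorescence from the cxcr4a:YFP reporter of a chemokine receptor gene. Of the 4 value columns, 2 are headed Regenerating and 2 Non-Regenerating, 1 for each library. Regenerating was taken to be the cxcr4a:YFP+ gate and Non-Regenerating the cxcr4a:YFP- gate, from knowledge of the reporter and not from a label. The labels do not state whether the 2 replicates of a gate are separate animals or how many animals were pooled, so all errors and p-values reflect library-to-library spread, possibly a technical one. The question was which genes differ between the populations that the design calls regenerating and non-regenerating.

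A ring of connexin proteins forms a half-channel, and half-channels of adjoining cells dock to let ions and small molecules pass. In mammals Gja5 and Gja4 encode the connexins of arterial endothelium, and Gja5 also serves atrial muscle and the fast conduction system. The product of Gja1 joins mammalian ventricular muscle cells and is widespread in other tissues. Zebrafish carry duplicate copies of several of these genes, among them the pairs gja5a with gja5b and cx40.8 with cx43.

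The values are normalized read counts, rounded to whole numbers by the authors, and their totals were between 10481747 and 10761712 per library. The reporter genes were read in all libraries. The chemokine receptor gene cxcr4a was at 2285 and 2242 in Regenerating against 585 and 590 in Non-Regenerating, and flt1 was at 5496 and 5925 against 6595 and 6649. None of the 24 pan-endothelial markers found was at 0 in any library, and their summed values were 102934 and 111482 against 115372 and 123599. Markers of other cells were also present in every library. The 22 epicardial and fibroblast markers found summed to 54981 and 55480 in Regenerating against 68582 and 62655 in Non-Regenerating. The 7 erythrocyte markers found summed to 354 and 347 against 365 and 308, with 3 of them at 0 in at least 1 library. The 24 cardiomyocyte markers found summed to 75676 in Regenerating replicate 1, 30841 in Regenerating replicate 2, 14690 in Non-Regenerating replicate 1 and 9937 in Non-Regenerating replicate 2, with none at 0. In bulk samples, fewer cells of a type and less RNA per cell cannot be told apart.

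The gja5 genes were the members in which both Regenerating libraries lay above both Non-Regenerating libraries. The gene gja5a (ENSDARG00000040065, chromosome 9, 30464641 to 30477311, plus strand, in the build danRer11 that the submitters' processing notes name) had normalized counts of 483 and 550 in the Regenerating pair and of 18 and 29 in the Non-Regenerating pair. Both Regenerating libraries lay far above both Non-Regenerating libraries, and the spread within each group was small beside the gap between the groups. The means were 516.5 ± 47.4 and 23.5 ± 7.78 (SD, n = 2 each), a log2 fold change of 4.44 with an SE of 0.366 on the log2(value + 1) scale, or 21.6-fold. With a pseudocount of 10 in place of 1 the log2 fold change was 3.99. By size of this log2 fold change gja5a stood at place 61 of the 16928 genes that passed the filter on low values, counted from the highest.

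The second copy, gja5b (ENSDARG00000069450, chromosome 1, 47414734 to 47431453, minus strand), is the gene that zebrafish leopard mutants lack, known for its part in the stripe pattern of the skin. Its counts were 1951 and 2699 in Regenerating, compared with 439 and 952 in Non-Regenerating. The groups again did not overlap, and as in gja5a replicate 2 was the higher one in both groups. The Non-Regenerating libraries stood further apart than those of gja5a. The means were 2325 ± 529 and 695.5 ± 363 (SD, n = 2 each), a log2 fold change of 1.83 (SE 0.402), or 3.55-fold, at place 728 of 16928. Leaving out Non-Regenerating replicate 1 brought it to 1.27 and leaving out the other library of that group to 2.38, whereas that of gja5a stayed between 4.11 and 4.76 when any 1 library was left out.

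The ratio between the copies within a library differed between the groups. The value of gja5b was 4.04 and 4.91 times that of gja5a in the Regenerating libraries, and 24.4 and 32.8 times in the Non-Regenerating libraries. Because gene length was not taken into account, this ratio says nothing about which copy is the more abundant, only that it differed between libraries. It restates the log2 fold changes of the copies, which were chosen on this contrast, and in Non-Regenerating it rests on gja5a values of 18 and 29.

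The Gja4 counterpart cx39.4 was nearly level. This gene (ENSDARG00000070357, chromosome 19, 37153409 to 37154436, minus strand) is the zebrafish counterpart of Gja4, the other arterial connexin of mammals, and with gja5b it shapes the pigment pattern. Regenerating libraries held 1883 and 1917 counts of it and Non-Regenerating libraries 1756 and 1901. The groups overlapped, and the highest library was 1.09 times the lowest. The log2 fold change was 0.06 with an SE of 0.124, and -8.2e-04 without Non-Regenerating replicate 1. Set against cx39.4 of the same library, gja5a was at a ratio of 0.257 and 0.287 in Regenerating, as against 0.0103 and 0.0153 in Non-Regenerating. This restates the difference in gja5a, since cx39.4 was nearly the same in all 4 libraries.

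The Gja1 counterpart cx43 was level too. This gene (ENSDARG00000041799, chromosome 20, 40715163 to 40720530, minus strand) is the one affected in zebrafish short fin mutants, where it is known for its part in the growth of fin bone segments. Regenerating libraries held 4708 and 4758 counts and Non-Regenerating libraries 4542 and 5228. Both Regenerating libraries fell between the Non-Regenerating ones, and the log2 fold change was -0.04 (SE 0.112), which turned to 0.06 without Non-Regenerating replicate 2 and to 0.03 with quantile scaling. Its second copy, cx40.8 (ENSDARG00000071192, chromosome 17, 15413412 to 15417217, plus strand), was low in all libraries, at 42 and 5 in Regenerating against 23 and 26 in Non-Regenerating. The Regenerating libraries lay on either side of the Non-Regenerating pair, so the log2 fold change of -0.66 (SE 1.03) turned to 0.76 when replicate 2 of Regenerating was left out and was -2.09 when replicate 1 was.

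The heart connexin gene gja3 was at 2 counts or fewer except in 1 library. This gene (ENSDARG00000021889, chromosome 9, 21407987 to 21409466, plus strand) is needed for conduction in the embryonic zebrafish ventricle. Its counts were 29 and 1 in Regenerating, against 2 and 0 in Non-Regenerating. Its log2 fold change of 2.16, which was 0.21 without Regenerating replicate 1, rests on that library. It did not pass the filter of at least 10 in at least 2 libraries and was left out of the fit. Of its counts over the 4 libraries, 90.6% were in Regenerating replicate 1, the library in which the cardiomyocyte markers were also highest, with 57.7% of their sum. The part of heart muscle RNA in the gja3 value was not tested.

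**Figure D1:**
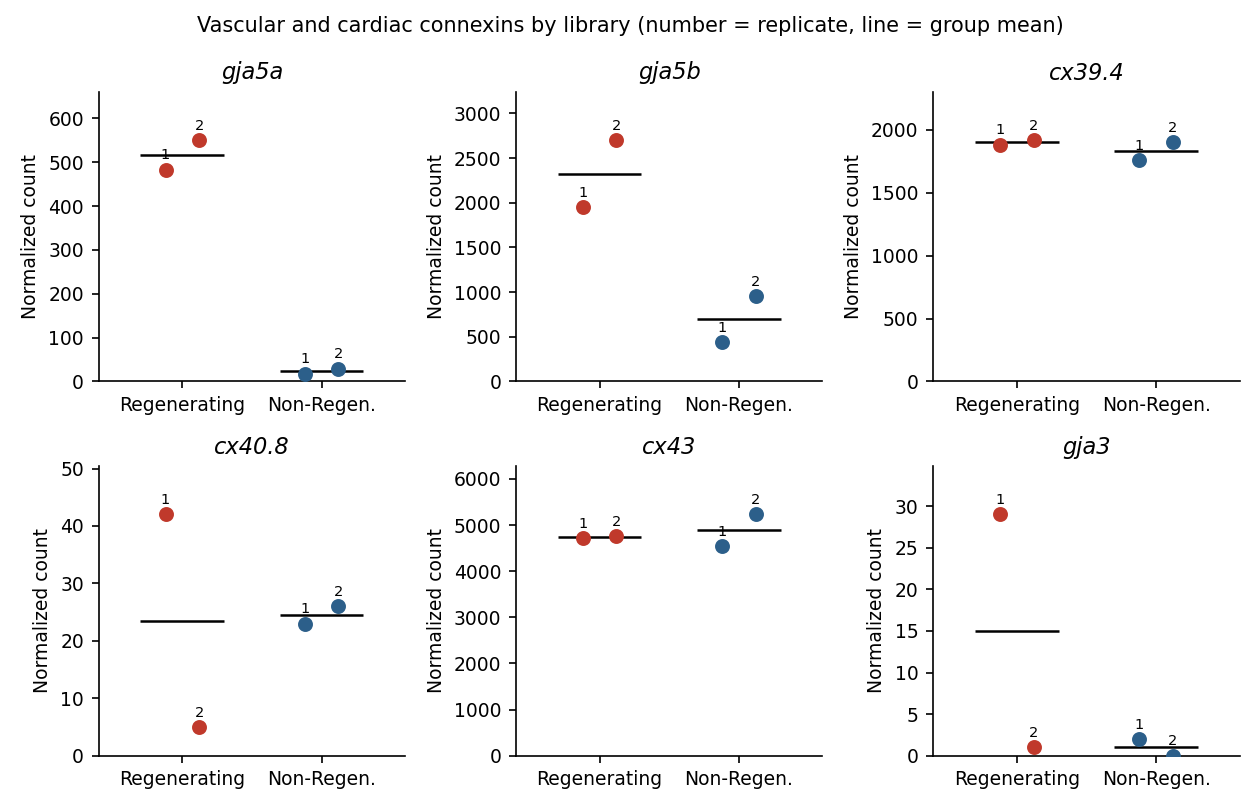
Normalized counts (vertical axis, from 0 in each panel) of the 6 connexin genes in the Regenerating and Non-Regenerating libraries; each point is 1 library, the number its replicate, and the line the group mean. The groups lie apart for gja5a and gja5b, overlap for cx39.4 and cx43, and for cx40.8 and gja3 the highest point is Regenerating replicate 1.

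Of the 6 members, 5 passed the filter, and in 2 of these, gja5a and gja5b, both Regenerating libraries were above both Non-Regenerating libraries. The same held for 21.8% of all genes tested, and the reverse, both lower, for 21.5%. Because these 2 genes were chosen on this contrast, nothing is read from their count. Ordered by log2 fold change, the tested members were gja5a, gja5b, cx39.4, cx43 and cx40.8, and the last 3 lay within their SE of 0.

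Marker lists give the setting in which the gja5 genes were read. Of the 27 arterial endothelial markers found, all were tested, and 12 were higher and 3 lower in Regenerating with no overlap between groups, beside 21.8% higher and 21.5% lower of all genes. Their median log2 fold change was 0.06, and their sum was 63180 and 69647 against 53482 and 59093. This list holds cxcr4a and flt1, whose reporters set the gates. Its log2 fold changes ran from -3.08 to 1.94, the highest being that of cxcr4a, against 4.44 for gja5a and 1.83 for gja5b. The 15 venous markers summed to 17086 and 15462 against 23818 and 22195, with 1 higher and 12 lower without overlap and a median of -0.79. The 16 endocardial markers summed to 13603 and 13174 against 22945 and 16331, and of the 15 tested 2 were higher and 11 lower without overlap, with a median of -2.09. Of the 24 pan-endothelial markers 1 was higher and 9 were lower without overlap, with a median of -0.08. No marker of these lists was at 0 in any library. Mural cell markers summed to 23491 and 17789 against 19316 and 11359, with 4 of 18 higher and 2 lower without overlap, and macrophage markers to 12598 and 12471 against 12800 and 8186, with 8 of 22 higher and 1 lower. Of the 22 epicardial and fibroblast markers 7 were higher and 11 lower without overlap, with a median of -0.20. Of the 3 erythrocyte markers tested 0 were higher and 2 lower. In the cardiomyocyte list 20 of 23 tested markers were higher in Regenerating with no overlap and 0 lower, beside the same 21.8% and 21.5% of all genes, and the median was 2.80. Regenerating replicate 1 held 57.7% of the 4-library cardiomyocyte sum and Regenerating replicate 2 held 23.5%. Of gja5a these libraries held 44.7% and 50.9%, and of gja5b 32.3% and 44.7%. The part of other cell types in the gja5 values was not tested.

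**Figure D2:**
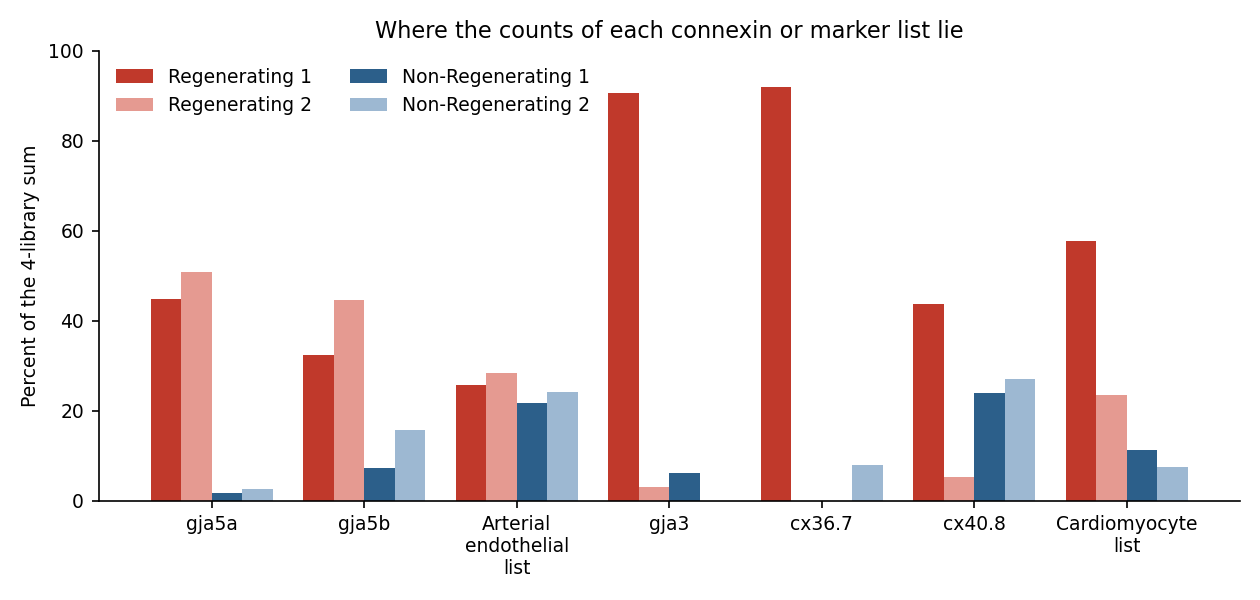
Percent of each gene's or marker list's 4-library sum (vertical axis) found in each library (bars). The bars of gja5a and gja5b are highest in Regenerating replicate 2, whereas gja3, cx36.7, cx40.8 and the cardiomyocyte list are highest in Regenerating replicate 1, at 90.6%, 92.0%, 43.8% and 57.7%.

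None of the other connexins analysed was called as different between the groups. Besides the 6 members, 13 genes with a connexin symbol were analysed, of which 6 passed the filter. In limma's test with Benjamini-Hochberg adjustment over all 16928 genes, 0 of these 6 were called, and 0 had an unadjusted p under 0.05. Over all genes, 0.00591% were called, which is 1 gene, and 12.8% had an unadjusted p under 0.05. Whether any member was called is not reported, because gja5a and gja5b were chosen on this contrast. The 6 had a median log2 fold change of 0.81, against 0.00 for all genes tested, with 4 above and 2 below 0. Leaving out replicate 1 or replicate 2 of Regenerating made that median 1.07 or 0.34, and leaving out replicate 1 or replicate 2 of Non-Regenerating made it 0.08 or 0.39. It was 0.24 with a filter of 50, 0.50 with a pseudocount of 10 and -0.21 without the filter on low values.

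The beta-type connexin gene cx35.4 was read in all libraries, with 840 and 1166 in Regenerating against 956 and 1505 in Non-Regenerating. Its neighbour on chromosome 17, cx34.4, read 201 and 238 against 218 and 396. In both genes the highest library was Non-Regenerating replicate 2, and the groups overlapped. The log2 fold changes were -0.28 (SE 0.289, limma adjusted p = 0.769) and -0.42 (SE 0.357, adjusted p = 0.707).

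The gene cx43.4 is one to which the protein annotation of the table also gives the name gjc1, but its row symbol is not gjc1 and it was not counted as a member. It was at 106 and 223 against 120 and 69, and its log2 fold change was 0.75 (SE 0.506, limma adjusted p = 0.624). The gene cx32.2 lies 3.68 kb from cx43 and read 146 and 77 against 79 and 22, with 1.32 (SE 0.723, adjusted p = 0.534). The gene cx27.5 read 11 and 20 against 4 and 14, with 0.87 (SE 0.835, adjusted p = 0.744). Leaving out 1 library gave values between 0.22 (without Regenerating replicate 2) and 1.28 (without Regenerating replicate 1) for cx43.4. Between leaving out one and the other Non-Regenerating library, replicate 1 or replicate 2, the value was 2.22 or 0.42 for cx32.2 and 0.08 or 1.67 for cx27.5. In each of these 3 genes 1 Regenerating library lay within the range of the Non-Regenerating pair. The cardiac connexin gene cx36.7, known from the embryonic zebrafish heart and chosen here after its values were seen, read 23 and 0 against 0 and 2. Like gja3 it had nearly all of its counts, 92.0%, in Regenerating replicate 1, and the part of heart muscle RNA in it was likewise not tested. The gene cx30.9 also passed the filter, at a mean of 9.75, and read 10 and 16 against 1 and 12. Its log2 fold change of 1.42 (SE 1.11, limma adjusted p = 0.681) was the highest of the other connexins tested. The remaining connexins analysed had means under 10 over the 4 libraries and did not pass the filter.

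**Figure D3:**
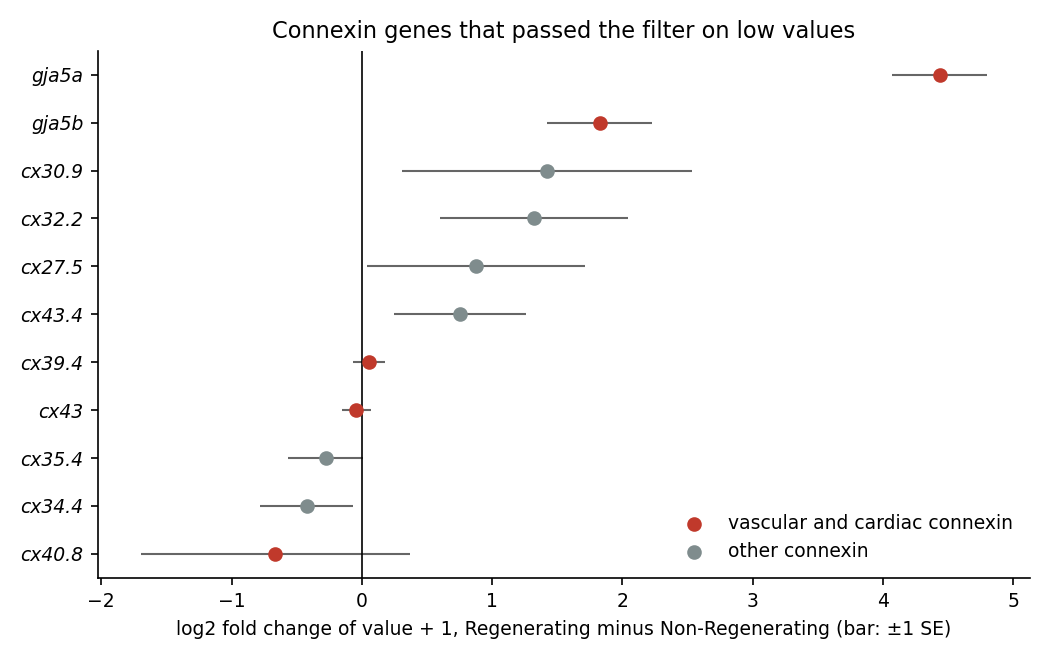
Log2 fold change of value + 1, Regenerating minus Non-Regenerating (horizontal axis), with bars of 1 SE, for the 11 connexin genes that passed the filter on low values. The genes gja5a at 4.44 and gja5b at 1.83 are the highest, and cx39.4 and cx43 sit at 0.06 and -0.04 (0.03 with quantile scaling) with the shortest bars.

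Genes that lie beside the gja5 copies were read as well. Downstream of gja5a, acp6 begins 1.46 kb beyond its end and read 601 and 357 against 537 and 121, with overlap between groups. Downstream of gja5b, bcl9 ends 3.55 kb away and read 1025 and 715 against 766 and 605.

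The 3 nearest genes among those analysed on each side of gja5a and of gja5b, 12 in all, were all tested. Their median log2 fold change was 0.50, against 0.00 for all genes tested. The largest was that of si:dkey-18p12.4, 71.9 kb upstream of gja5a, at 5.04, with 639 and 1611 against 24 and 37. Among the neighbours of gja5b, morc3b was the highest at 1.93, with 52 and 77 against 12 and 21. The lowest was lrrc58a at -1.25, with 5 and 15 against 20 and 25. The neighbours were taken by position, and those named here with a log2 fold change were singled out after their values were seen. Near cx43, the annotated span of cx28.1 overlaps those of cx28.9 and of cx32.3, which lie on the opposite strand. Whole gene spans were compared, not exons. Whether reads were counted by strand is not given in the sources used here. The low values of these connexins, at most 11 in any library, are therefore uncertain as those of single genes.

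**Figure D4:**
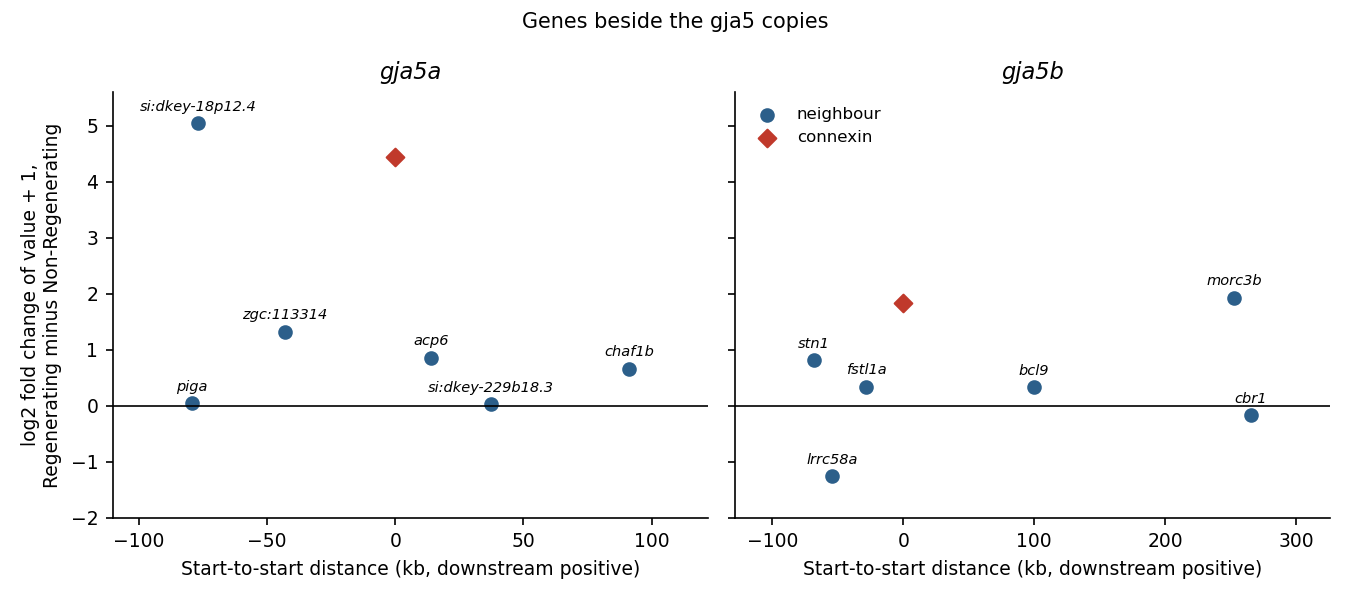
Log2 fold change of value + 1 (vertical axis) of the 3 nearest genes analysed on each side of gja5a and gja5b against the distance between gene starts in kb (horizontal axis, downstream positive); the diamond is the connexin and each circle a neighbour. The gene si:dkey-18p12.4 at 5.04 is the only one of the 6 neighbours of gja5a above 1.5, and morc3b at 1.93 is the highest neighbour of gja5b, itself at 1.83.

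Pannexins, which form channels of similar shape that rarely join cells, gave no call. In limma's test 0 of the 3 tested were called and 0 had an unadjusted p under 0.05, beside 0.00591% and 12.8% of all genes. The gene panx1b was at 48 and 112 against 24 and 42 (log2 fold change 1.18, SE 0.595, adjusted p = 0.505; 0.58 to 1.79 with 1 library left out), panx1a read 150 and 199 against 162 and 117, and panx3 read 36 and 34 against 29 and 47.

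Genes for proteins that bind, anchor or turn over connexins also gave no call. Of 17 tested, 0 were called by limma and 0 had an unadjusted p under 0.05, beside 0.00591% and 12.8% of all genes. Without overlap 6 were higher and 2 lower in Regenerating, beside 21.8% and 21.5% of all genes, and the median log2 fold change was 0.01. The smallest unadjusted p belonged to cav3, the muscle caveolin gene, which read 287 and 18 against 11 and 3 (3.42, SE 1.42, adjusted p = 0.42), again highest in Regenerating replicate 1. Its value was 1.46 without that library and 5.38 without the other Regenerating library. The scaffold genes magi1b and tjp2a followed. The first read 2447 and 2518 against 1552 and 2153 (0.44, SE 0.188, adjusted p = 0.433) and the second 437 and 467 against 301 and 357 (0.46, SE 0.21, adjusted p = 0.458).

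Among genes of the intercalated disc, the junction between heart muscle cells where gap junctions gather, 0 of 17 tested were called by limma. Over all genes 0.00591% were called. At an unadjusted p under 0.05 there were 5 higher and 1 lower of the 17, beside 7.62% of all genes higher and 5.19% lower at that limit. These 6 became 3 without Regenerating replicate 1 or without the variance trend. Those with the smallest p were desmb, a desmin gene shared with the mural list, at 207 and 319 against 66 and 75 (log2 fold change 1.85, SE 0.343, adjusted p = 0.177), the actin-binding gene xirp1, at 2941 and 528 against 77 and 17 (5.06, SE 1.05, adjusted p = 0.194), and the sodium channel gene scn5lab, at 105 and 39 against 10 and 7 (2.80, SE 0.674, adjusted p = 0.219). The genes xirp1 and scn5lab were highest in Regenerating replicate 1, as the cardiomyocyte markers were, and desmb was not.

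Transcription factors known to bind or regulate connexin genes, or to set arterial fate, were mixed. Of 22 tested, 0 were called by limma, beside 0.00591% of all genes. At an unadjusted p under 0.05, 4 were higher and 2 lower, beside 7.62% and 5.19% of all genes. These 6 became 3 without Non-Regenerating replicate 1. The median log2 fold change was -0.03. The forkhead gene foxc1a read 166 and 86 against 995 and 470 (-2.51, SE 0.497, adjusted p = 0.189), and the T-box repressor gene tbx2a 622 and 549 against 260 and 331 (0.99, SE 0.225, adjusted p = 0.204). The cardiac factor gene gata4, shared with the endocardial list, read 36 and 12 against 197 and 119 (-2.81, SE 0.641, adjusted p = 0.205). In each of these 3 genes the groups did not overlap, but they were picked for the smallest p, so nothing is read from this. Of the 22 tested, 7 were higher and 4 lower without overlap, beside 21.8% and 21.5% of all genes.

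For each gja5 copy, the 5 genes with the most similar profile were sought among 13116 tested genes with a mean of at least 50. Likeness was the Euclidean distance between centred log2(value + 1) values over the 4 libraries, so that both the size and the shape of the difference count. It is a description of 4 libraries and includes the contrast on which the gja5 genes were chosen. Nearest to gja5a was cldn7b, a tight junction claudin gene, at a distance of 0.27, with 193 and 235 against 8 and 10. The next were AL590149.1 (0.718), gpr184 (0.794), the transcription factor gene pou2f2a (0.861), whose mammalian counterpart is known from B cells, and ly97.3 (0.909). In Non-Regenerating, AL590149.1 read 5 and 4, gpr184 4 and 3, and pou2f2a 2 and 8, so these genes reached the filter's 10 only in Regenerating. The distances of these genes and of cldn7b, at 8 and 10, depend on the added 1. With a pseudocount of 10 the log2 fold changes were 3.56 for cldn7b, 2.91 for AL590149.1, 3.15 for gpr184, 3.29 for pou2f2a and 4.12 for ly97.3, against 3.99 for gja5a.

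Nearest to gja5b was cd44a, a gene for a receptor of the matrix sugar hyaluronan, at a distance of 0.142. It read 1168 and 1706 against 291 and 556. Its second replicate was the higher one in both groups, as in gja5b, which follows from its choice by closeness to that gene. It was followed by the small GTPase gene rab34b (0.15), the cofilin-like gene cfl1l (0.206), si:ch211-130m23.3 (0.234) and the phosphatase gene inppl1b (0.247). No gene stood in both sets of 5, and none could at these distances. The distance counts the size of the difference, and the log2 fold changes of the copies were 4.44 and 1.83. Nothing is read from this.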

How the data were processed

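Bulk RNA of 4 sorted libraries was analysed from 1 deposited table. The tools named in the submitters' processing notes, without their roles, are DESeq2 1.36.0, featureCounts 2.0.4, Picard 3.1.1, STAR 2.7.11a and Trimmomatic 0.39, and the build is danRer11. Full-length cDNA was amplified from roughly 5 ng of RNA, per the labels' protocols. The deposited values are normalized gene counts rounded to whole numbers by the authors, and were treated as a score, so no count model was fitted. Amplified reads carry no molecular identifiers, so low values have counting error beyond what is shown.

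The filter on low values asked for 10 or more in 2 or more libraries and kept 16928 genes. The fit was by limma 3.58.1 (R 4.3.3), with moderated variances that follow a trend in mean level, on log2(value + 1), a scale that understates folds of low genes. A gene was called at a Benjamini-Hochberg adjusted p under 0.05. The fit was also run on simulated normal values drawn from its own variance model, which cannot show how well that model suits these data. The 7 gene names, the lists and the tests were chosen with earlier results of these data known. Named genes are the members, other connexins with a mean of at least 10, the 3 genes of each related list with the smallest p, the 5 genes of nearest profile and the 2 reporter genes. Genome and promoter sequence was not used here, and 2 further connexin genes are not reported here. Alternatives changed the filter, the pseudocount, the scaling or the variance trend, added a replicate block, or left out each library in turn.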

Additional observations from a re-analysis of the deposited data

How the results depend on the processing

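The call of 1 gene among all genes became 0 without the variance trend, and 0 to 0 when each library was left out. In the fit with the replicate number as a block it was 357, with 1 gene called among pannexins, partner and intercalated disc genes (xirp1), 3 among the transcription factors (gata6, sox17 and foxc1a) and 0 among other connexins. Deviations of same-numbered libraries had a correlation across genes of 0.339, but no label ties the numbers to an animal or day, so the block is not taken as a pairing. The log2 fold change of gja5a was 3.99 with a pseudocount of 10, and the cause, a larger constant added to low values, lies in that choice. Leaving out 1 library gave 1.27 to 2.38 for gja5b, -2.09 to 0.76 for cx40.8 and 0.21 to 4.11 for gja3. Without Non-Regenerating replicate 2, the sign turned in cx43 (0.06, and 0.03 with quantile scaling), cx35.4 (0.0499), cx34.4 (0.00475) and panx3 (0.26), none of them called, and the cause was not tested. The lowest values of the last 3, without Non-Regenerating replicate 1, were -0.60, -0.85 and -0.42, and cx39.4 was at -8.2e-04 there. Members at a few counts, such as gja3 with 0 to 29, have counting error beyond what is shown. The cause of the 29 in Regenerating replicate 1 was not tested.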

Other observations

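The low member cx40.8 lies near several genes that were also highest in Regenerating replicate 1 and lower in Regenerating replicate 2. Chosen after their values were seen, FAM184A, 30.7 kb upstream, read 108 and 8 in Regenerating against 31 and 20 in Non-Regenerating, and si:ch211-270g19.5, 108 kb upstream, read 1273 and 140 against 529 and 205. Downstream, si:ch211-266g18.10, at 32.2 kb, read 296 and 34 against 34 and 15. The nearest upstream gene was instead highest in Non-Regenerating replicate 1, though its replicate 1 was also the higher one in Regenerating. This was si:ch211-266g18.6, at 2.43 kb from cx40.8, with 5 and 2 against 105 and 33.

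Beside gja3, the gene aff3, 81.4 kb downstream and also singled out after its values were seen, read 106 and 40 against 1 and 10. Besides the genes with connexin symbols, 2 rows carry a gap junction protein name only. They were si:rp71-1c10.10, at 4 and 7 against 2 and 5, and si:dkey-91f15.1, at 2 and 2 against 4 and 7, both below the filter on low values.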
